A study of Mus musculus with 12 samples.

Results

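The 10 genes described here, Nfe2l2, Keap1, Gclc, Gclm, Gsr, Txnrd1, Srxn1, Prdx1, Nqo1 and Hmox1, belong to the NRF2 antioxidant and glutathione system, and were taken by symbol from the 21671 lines of an RNA-seq table. All 10 had a line and all 10 could be tested, among 12257 genes tested in all. The cells were 3T9 fibroblasts, an immortalized line from mouse embryos, that carry MycER, a fusion of Myc with a hormone-binding domain that 4-hydroxytamoxifen (OHT) activates. They also carry YAP S127A, a mutant of the transcriptional co-activator YAP that escapes inhibitory phosphorylation by the Hippo pathway, on a vector from which doxycycline (dox) switches it on. The comparison asks how the antioxidant genes respond when Myc, YAP or both are activated in cells that were starved and confluent beforehand. The paper reports that activating both factors, but neither alone, brought such cells into the cell cycle. OHT+dox cells may therefore have been growing, and the part of cell cycle entry in the values was not tested.

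There were 4 groups of 3 libraries. Mock cells received neither drug, OHT cells received 400 nM OHT, dox cells received 2 µg/mL dox, and OHT+dox cells received both at these doses. All 4 groups, mock included, carried both transgenes and were serum-starved at high confluence before treatment, while the sample labels give the genotype only as 3T9MycER. The labels do not say whether the 3 libraries of a group came from separate cultures, so the p-values measure the spread between libraries, which may be technical. Cells without MycER or without the YAP vector were not analysed here, so an effect of OHT or dox itself and an effect of the factor it switches on cannot be told apart. In such bulk RNA, fewer cells of a type and less RNA per cell cannot be told apart either.

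NRF2, encoded by Nfe2l2, is a transcription factor that is held at a low level by KEAP1, an adaptor that hands it to a ubiquitin ligase. When oxidants or electrophiles modify KEAP1, NRF2 accumulates, binds antioxidant response elements together with small MAF proteins, and switches on genes for glutathione synthesis, thiol reduction, and quinone and heme breakdown. Much of this control acts on the NRF2 protein, so the mRNA of Nfe2l2 need not follow the activity of the factor, and the targets are commonly read in its place.

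The promoters of the genes can be inspected for the element that NRF2 reads, which is why they are shown here. Of the 10 genes, 7 had an entry in the RefSeq promoter table used (build GRCm38.p6), and Gclc, Gsr and Hmox1 had none. The 250 bases before each transcription start were searched on both strands for TGACNNNGC (the core of the antioxidant response element), CACGTG (an E-box that Myc can bind) and GGAATG (a motif of the TEAD partners of YAP). The antioxidant core was found in 4 of the 7, and 11.5% of all genes in the table hold it in a window of this length. The E-box was found in 0 of the 7, against 6.86% of all genes, and the TEAD motif in 0 of the 7, against 14.4%. A match is a string of letters and not a measured site, and an absent match says only that the letters are not in that window. The stretches of 100 bases around the 4 matches, all upstream of the start and written on the strand of the gene with the match in capitals, were these.
Nfe2l2, chr2:75704814-75704913, minus strand, match 240 to 232 bases before the start: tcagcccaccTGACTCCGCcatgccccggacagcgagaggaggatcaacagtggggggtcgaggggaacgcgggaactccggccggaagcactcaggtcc
Gclm, chr3:122245378-122245477, plus strand, match 134 to 126 bases before the start: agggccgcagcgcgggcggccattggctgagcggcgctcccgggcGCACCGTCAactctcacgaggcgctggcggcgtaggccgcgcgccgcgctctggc
Prdx1, chr4:116685421-116685520, plus strand, match 133 to 125 bases before the start: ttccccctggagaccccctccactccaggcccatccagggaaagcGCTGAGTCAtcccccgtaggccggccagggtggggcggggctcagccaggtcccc
Txnrd1, chr10:82859069-82859168, plus strand, 1 of 3 windows listed for the gene, match 92 to 84 bases before the start: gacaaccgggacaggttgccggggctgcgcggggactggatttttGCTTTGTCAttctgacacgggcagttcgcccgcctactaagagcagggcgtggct

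The match lies on the strand of the gene in Nfe2l2 and on the opposite strand in the other 3, where the core reads backwards. Of these 4 genes, Txnrd1 alone passed the test in any comparison with mock, and the other 3 passed in none. Txnrd1 passed with dox only, and no longer did so when groups were scaled to equal sums. Gclc, Gsr and Hmox1, which passed with OHT, had no promoter entry and were not searched. Nqo1, which was searched and held no core, also passed with OHT. Whether the core goes with a response was not tested.

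The values below are mean normalized read counts of a group, each ± the standard error of the model with n = 3 libraries. The deposited table holds no value for a single library, so group means and errors were worked back from its fold changes and p-values, and whether single libraries of the groups overlap could not be seen. Fold changes are on the log2 scale with their standard error. The word rose or fell is used where the Benjamini-Hochberg adjusted p of a two-sided Wald test, over all 12257 genes, was under 0.05, and a gene was called where the log2 fold change was also beyond 0.5 in size. The recovered size factors of the libraries lay between 0.814 and 1.13, and the read totals are unknown. The spread between libraries that the model implies, which was not observed, ran from 6.51% of the mean for Keap1 to 28.1% for Nqo1. As a check of the labels, Ncl, a Myc target, rose by 0.94 ± 0.10 with OHT (adjusted p = 1.38e-18, Wald test across all genes) and by 0.45 ± 0.10 with dox (adjusted p = 0.000288). Ctgf, a YAP target, rose by 0.64 ± 0.09 with dox (adjusted p = 8.33e-11) and fell by 0.32 ± 0.09 with OHT (adjusted p = 0.00306). The line of Myc fell by 1.15 ± 0.15 with OHT and rose by 0.75 ± 0.14 with dox. The line of mouse Yap1 differed by −0.05 ± 0.09 between dox and mock (adjusted p = 0.822), so it gives no sign of the transgene's RNA. Of 8 fibroblast markers 7 could be tested, with summed means of 31886 in mock, 28544 in OHT, 30870 in dox and 26701 in OHT+dox, and 1 of them fell with OHT and 2 with OHT+dox. The remaining marker had a mean under 5. Of 5 macrophage markers, 1 could be tested, at 26.2 to 32.7 in the 4 groups, and 3 had a mean under 5. The remaining macrophage marker could not be tested and had a mean of at least 5. Markers of epithelium (4 of 4 with a mean under 5), endothelium (3 of 3) and adipocytes (3 of 3) were near the limit of detection. None of the markers was at 0. The part of these differences in the results below was not tested.

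The 10 genes moved in both directions in these cells. With OHT, Gclc and Gsr, enzymes of glutathione synthesis and reduction, rose, while Nqo1 and Hmox1, enzymes of quinone and heme breakdown, fell. With dox, Gclc rose by less than with OHT. Txnrd1 rose with dox alone, by 0.25, but no longer passed when groups were scaled to equal sums. With both drugs Gclc and Gsr rose and Hmox1 fell, and no difference of these genes from OHT alone passed the test. Nfe2l2 and Keap1 themselves passed no test in any group.

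**Figure D1:**
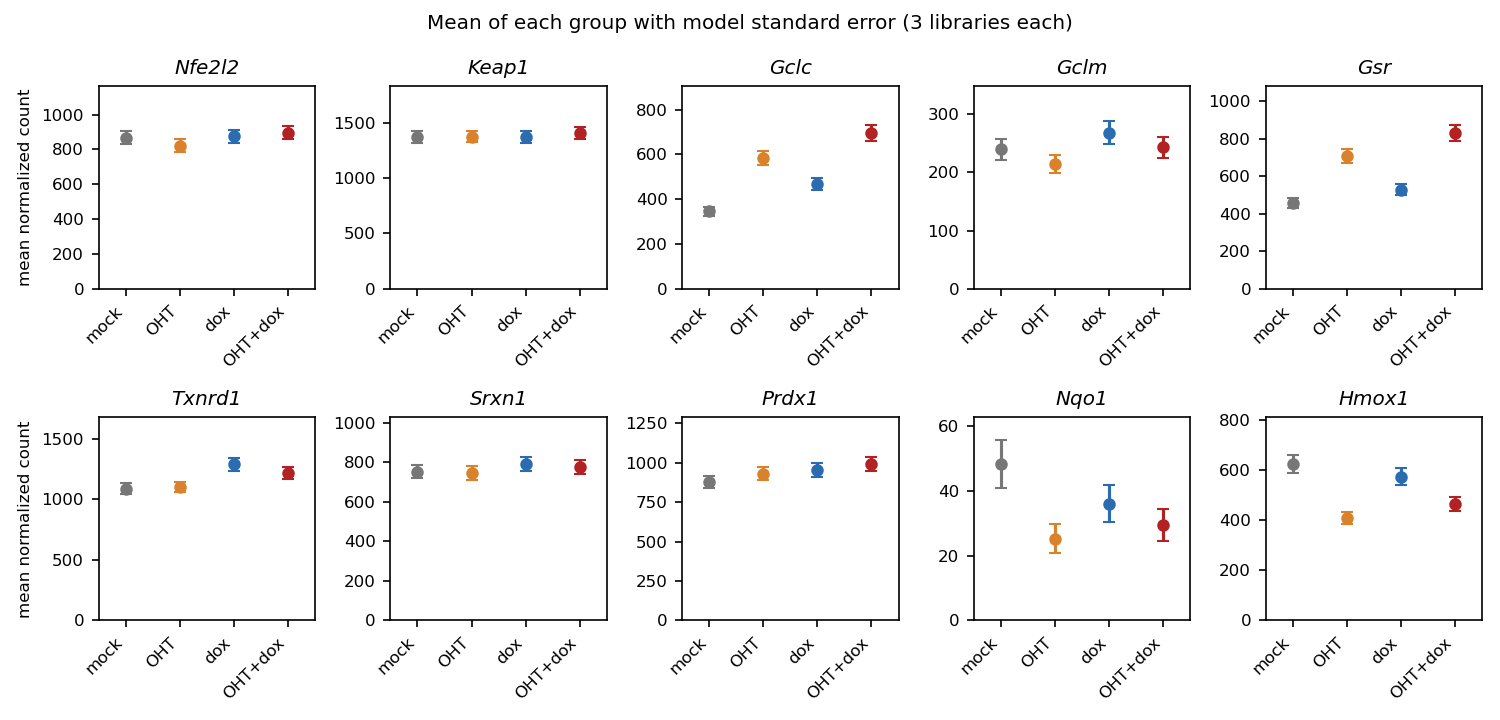
Mean normalized read counts of the 10 genes (vertical axes, each starting at 0) in mock, OHT, dox and OHT+dox, with bars of 1 model standard error, n = 3 libraries a group. Gclc and Gsr stand highest in OHT and OHT+dox, Hmox1 and Nqo1 stand lowest there, and Nfe2l2 and Keap1 stay near their mock levels.

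With OHT, 4 of the 10 genes were called, 2 higher and 2 lower, where 9.4% of all genes tested were called, 6.38% higher and 3.02% lower. With dox, 0 of the 10 were called and 2 passed without the fold minimum by the Wald test, both higher, where 4.01% of all genes were called and 10.8% passed without it (6.27% higher). The same 2 genes had an unadjusted p under 0.05, beside 22.7% of all genes. With OHT+dox, 2 of the 10 were called, both higher, and 3 passed without the fold minimum, where 20.7% of all genes were called (10.9% higher) and 40.1% passed. The median log2 fold change of the 10 was −0.00 with OHT, 0.10 with dox and 0.04 with OHT+dox, beside −0.01 over all genes in each of the 3 comparisons. So 4 of 10 was above the share over all genes with OHT, where the calls pointed both ways, and 2 of 10 was near it with OHT+dox. The 3 comparisons share the mock libraries and are therefore not independent of each other.

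Nfe2l2 encodes NRF2 itself. Its level was 866 ± 37.1 in mock, 822 ± 35.4 in OHT, 876 ± 37.5 in dox and 895 ± 38.3 in OHT+dox. The 4 means lay within a narrow band, and none of the differences passed the test. Against mock they were −0.08 ± 0.09 with OHT (adjusted p = 0.609), 0.02 ± 0.09 with dox (adjusted p = 0.950) and 0.05 ± 0.09 with OHT+dox (adjusted p = 0.704). The 95% intervals of the ratio to mock ran from 0.842 to 1.07 with OHT, from 0.898 to 1.14 with dox and from 0.918 to 1.16 with OHT+dox. These bounds concern the mRNA, and the NRF2 protein was not measured.

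Keap1 encodes the adaptor that targets NRF2 for degradation. Its level was 1369 ± 51.5 in mock, 1374 ± 51.6 in OHT, 1368 ± 51.4 in dox and 1407 ± 52.8 in OHT+dox. These 4 means were the closest to each other among the 10 genes, and the log2 fold changes from mock were 0.00, −0.00 and 0.04, each ± 0.08. The 95% interval of the ratio to mock reached at most 1.14, with OHT+dox, and at least 0.901, with dox.

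Of the other regulators in a list of 13 genes around NRF2, Bach1, which encodes a repressor that competes with NRF2 at the same elements, had −0.22 ± 0.09 with OHT (adjusted p = 0.0543), fell by 0.27 ± 0.09 with dox (adjusted p = 0.0289) and fell by 0.33 ± 0.09 with OHT+dox (adjusted p = 0.000885). Nfe2l1, which encodes the related factor NRF1, differed from mock by −0.11, −0.12 and −0.11 and passed in none. Mafk, a small MAF partner, rose by 0.31 ± 0.10 with OHT+dox (adjusted p = 0.00600). Btrc and Gsk3b, parts of a second route that degrades NRF2, fell with OHT+dox by 0.40 ± 0.09 and 0.44 ± 0.11. In all, 1 of the 13 regulators rose and 3 fell with OHT+dox, 30.8% beside 40.1% of all genes. Maff, a further small MAF gene that was chosen after its values were seen, moved in opposite directions, by −0.85 with OHT and by 1.09 with dox.

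Gclc encodes the catalytic subunit of glutamate-cysteine ligase, the enzyme of the rate-limiting step of glutathione synthesis. It had the smallest adjusted p of the 10 genes in each comparison with mock. Its level was 346 ± 19.7 in mock, 584 ± 31.2 in OHT, 468 ± 25.6 in dox and 696 ± 36.5 in OHT+dox. All 3 treated means lay above mock, in the order dox, OHT, OHT+dox. The rise was 0.76 ± 0.11 with OHT, a ratio of 1.69 (adjusted p = 9.02e-10). It was 0.44 ± 0.11 with dox, a ratio of 1.36 (adjusted p = 0.00256), and 1.01 ± 0.11 with OHT+dox, a ratio of 2.01 (adjusted p = 8.97e-18). Gclc was thus the only member that rose in each of the 3 treated groups.

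Gclm encodes the modifier subunit that joins GCLC and raises its efficiency. Its level was 239.7 ± 17.8 in mock, 215 ± 16.2 in OHT, 268 ± 19.7 in dox and 243 ± 18.1 in OHT+dox. It passed no test, with log2 fold changes of −0.16 ± 0.15 (OHT, adjusted p = 0.521), 0.16 ± 0.15 (dox, adjusted p = 0.594) and 0.02 ± 0.15 (OHT+dox, adjusted p = 0.918). The 95% interval of its log2 fold change with OHT+dox, −0.28 to 0.32, did not reach the lower bound of that of Gclc in the same group, 0.79. The promoter of Gclm is among those printed above with the antioxidant core.

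The 2 subunits of the ligase therefore shifted against each other. The ratio of Gclc to Gclm in counts, not corrected for length and so compared only between groups, was 1.44 in mock (95% interval 1.20 to 1.73), 2.72 in OHT (2.27 to 3.27), 1.75 in dox (1.46 to 2.09) and 2.86 in OHT+dox (2.39 to 3.42). The intervals of OHT and of OHT+dox lay clear of that of mock, and the interval of dox overlapped it. Per kilobase of exon the same ratios were 2.35, 4.45, 2.85 and 4.67.

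In a list of 13 genes of glutathione synthesis and supply, of which 10 could be tested and Gclc and Gclm were part, 2 rose with OHT, 3 with dox and 3 with OHT+dox, and 0 fell in each by the Wald test. These shares, 20%, 30% and 30%, stand beside 21.7%, 10.8% and 40.1% of all genes. At an unadjusted p under 0.05 there were 2, 4 and 4 of the 10, beside 32.1%, 22.7% and 47.4% of all genes. Cth, which makes cysteine from cystathionine, rose by 1.11 ± 0.25 with OHT, 0.87 ± 0.26 with dox and 1.53 ± 0.25 with OHT+dox (adjusted p = 0.000165, 0.0103 and 1.25e-08). Chac1, which does the opposite of synthesis and breaks glutathione down, had −0.13 ± 0.18 with OHT and rose by 1.36 ± 0.17 with dox and by 1.46 ± 0.17 with OHT+dox. Slc7a11, the cystine importer and a textbook NRF2 target, had −0.15 ± 0.18, 0.48 ± 0.17 and 0.33 ± 0.17 (adjusted p = 0.621, 0.0511 and 0.122). Gss, the second enzyme of the synthesis, had 0.18, 0.30 and 0.32, each ± 0.16, and did not pass either. The rises of this list thus rested on 3 genes, and of these Chac1 encodes an enzyme of glutathione breakdown.

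Gsr encodes glutathione reductase, which returns oxidized glutathione to its reduced form with NADPH. Its level was 457 ± 25.1 in mock, 708 ± 37.2 in OHT, 528 ± 28.5 in dox and 832 ± 43.1 in OHT+dox. It rose by 0.63 ± 0.11 with OHT (adjusted p = 2.72e-07) and by 0.86 ± 0.11 with OHT+dox (adjusted p = 6.94e-14), ratios of 1.55 and 1.82. With dox its log2 fold change was 0.21 ± 0.11 (adjusted p = 0.249), and the 95% interval of that ratio, 0.993 to 1.34, leaves room for a rise up to the upper bound. The order of the 4 means, mock, dox, OHT and OHT+dox, was that of Gclc.

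Among 22 genes of glutathione reduction and use, 19 of them tested, 5 rose and 0 fell with OHT, 0 rose and 1 fell with dox, and 6 rose and 3 fell with OHT+dox. These shares, 26.3%, 5.26% and 47.4%, stand beside 21.7%, 10.8% and 40.1% of all genes. Abcc4 and Abcc1, exporters that carry glutathione or its conjugates, rose by 1.07 ± 0.16 and 0.47 ± 0.09 with OHT+dox and by 0.94 ± 0.17 and 0.33 ± 0.09 with OHT. Glrx5, a mitochondrial glutaredoxin of iron-sulfur assembly, rose by 0.58 ± 0.12 with OHT+dox. On the other side Mgst3, a microsomal glutathione transferase, fell by 0.98 ± 0.26 with OHT+dox (adjusted p = 0.000661). Gstm2, a cytosolic transferase, fell by 0.41 ± 0.16 and Glrx, the cytosolic glutaredoxin, by 0.33 ± 0.12 in that group. Reads of Gstm2 may be shared with near-identical genes of its family, so its value is uncertain.

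**Figure D2:**
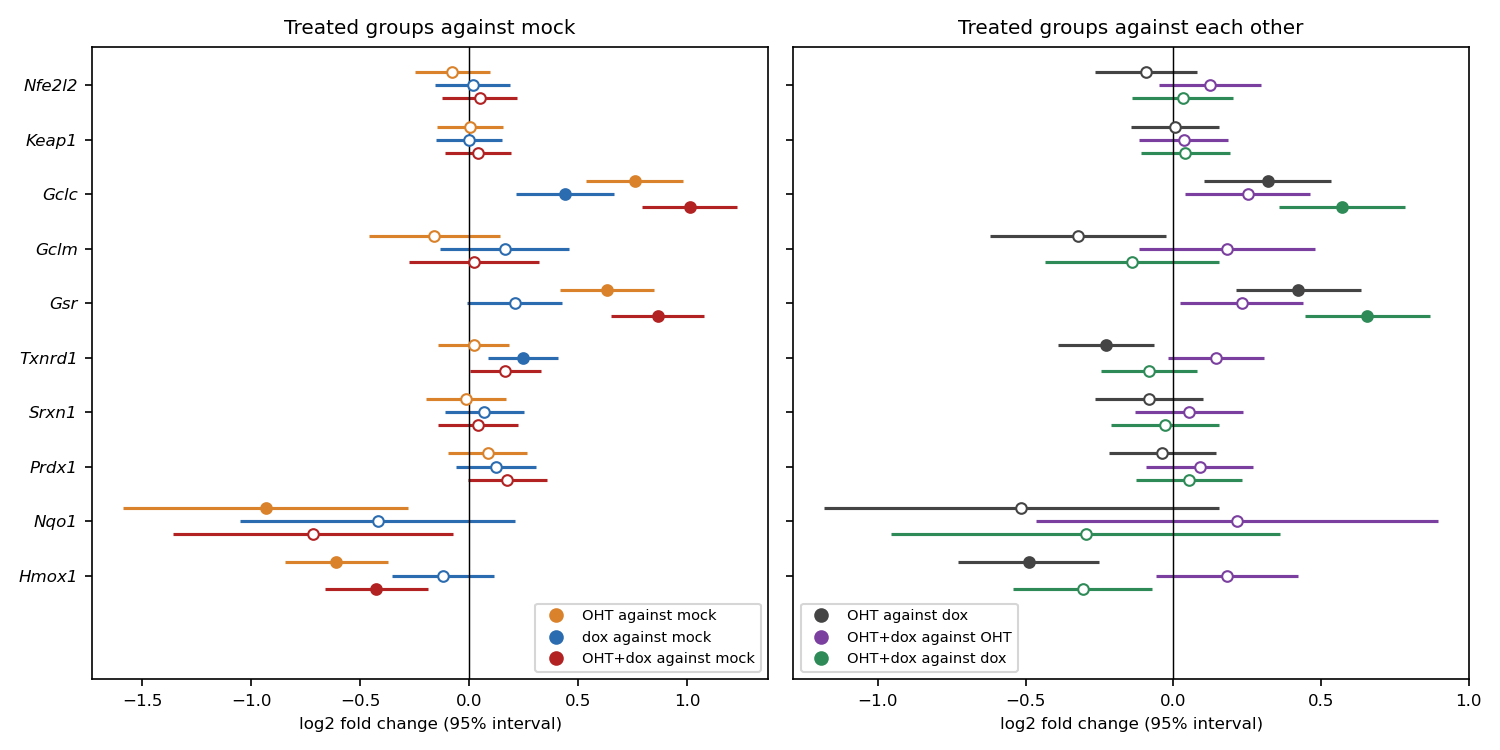
Log2 fold changes (horizontal axes) of the 10 genes, with 95% intervals as bars and filled symbols for genes that passed. The left panel shows OHT, dox and OHT+dox against mock, and the right panel the treated groups against each other. In the left panel Gclc and Gsr lie to the right, Hmox1 and Nqo1 to the left, and the interval of Nqo1 is the widest.

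Txnrd1 encodes the cytosolic thioredoxin reductase, a selenoprotein that keeps thioredoxin reduced. Its level was 1085 ± 44.3 in mock, 1100.1 ± 44.9 in OHT, 1287 ± 51.8 in dox and 1216 ± 49.2 in OHT+dox. It was the only member whose highest mean was in the dox group and passed there, with a rise of 0.25 ± 0.08 (adjusted p = 0.0307), a ratio of 1.19. With OHT it differed by 0.02 ± 0.08 (adjusted p = 0.903) and with OHT+dox by 0.16 ± 0.08 (adjusted p = 0.1001). The dox difference was small and close to the threshold, and no longer passed when groups were scaled to equal sums (0.23, adjusted p = 0.0527).

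Srxn1 encodes sulfiredoxin, which repairs peroxiredoxins whose active cysteine has been over-oxidized. Its level was 752 ± 34.4 in mock, 745 ± 34.1 in OHT, 789 ± 35.9 in dox and 774 ± 35.3 in OHT+dox. No difference passed, and the log2 fold changes were −0.01, 0.07 and 0.04, each ± 0.09. The 95% interval of the ratio to mock was 0.873 to 1.12 with OHT, 0.925 to 1.19 with dox and 0.907 to 1.17 with OHT+dox.

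Prdx1 encodes an abundant peroxiredoxin that removes hydrogen peroxide. Its level was 877 ± 40.0 in mock, 930.2 ± 42.2 in OHT, 954 ± 43.2 in dox and 990.3 ± 44.7 in OHT+dox. All 3 treated means were above mock, but by less than the test required, at 0.09 ± 0.09, 0.12 ± 0.09 and 0.18 ± 0.09 (adjusted p = 0.586, 0.477 and 0.119). The upper bound of the ratio with OHT+dox was 1.28. Prdx1 has processed pseudogenes, with which the counting may have split reads.

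Txnrd1, Srxn1 and Prdx1 belong to a list of 15 thioredoxin and peroxiredoxin genes. In that list 1 gene rose with OHT, 3 rose and 2 fell with dox, and 5 rose and 2 fell with OHT+dox, which is 6.67%, 33.3% and 46.7% beside 21.7%, 10.8% and 40.1% of all genes. Of the other peroxiredoxins, Prdx6, which reduces lipid peroxides, rose by 0.31 ± 0.09 with dox and 0.40 ± 0.09 with OHT+dox, and mitochondrial Prdx3 rose by 0.23 ± 0.10 with OHT+dox (adjusted p = 0.0475). Prdx2, Prdx4 and Prdx5 passed in no comparison with mock. Txn2, the mitochondrial thioredoxin, rose by 0.52 ± 0.11 with OHT and 0.66 ± 0.11 with OHT+dox. Its reductase Txnrd2 had 0.16, −0.02 and −0.05, each ± 0.26, and Txnrd3 rose by 0.55 ± 0.16 with OHT+dox. The 2 sestrins of the list, stress-induced regulators of growth signalling, went in opposite directions, as Sesn2 rose by 0.59 ± 0.14 with dox and 0.57 ± 0.14 with OHT+dox while Sesn1 fell by 0.49 ± 0.09 and 0.53 ± 0.09. Txnip, an inhibitor of thioredoxin, fell by 0.26 ± 0.08 with dox and 0.39 ± 0.08 with OHT+dox.

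Nqo1 encodes NAD(P)H quinone dehydrogenase, an enzyme whose mRNA is often used as a readout of NRF2. Its counts were few. Its level was 48.2 ± 7.42 in mock, 25.3 ± 4.37 in OHT, 36.1 ± 5.82 in dox and 29.4 ± 4.92 in OHT+dox. All 3 treated means were below mock, but the errors were large. It fell by 0.93 ± 0.33 with OHT (adjusted p = 0.0278), a ratio of 0.524 with a 95% interval from 0.333 to 0.824. With dox it had −0.42 ± 0.32 (adjusted p = 0.483), and with OHT+dox −0.72 ± 0.33 (adjusted p = 0.0680, 95% interval of the ratio 0.390 to 0.951). The size of its fold depended on the width of the fold prior that was undone, from −0.79 to −1.29 with OHT, and with a prior 0.8 times as wide it also fell with OHT+dox (−1.04, adjusted p = 0.0414). The deposited table gives it no adjusted p in the dox comparison, so the dox mean rests on the deposited mean of the 6 libraries and the mock mean.

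Hmox1 encodes heme oxygenase 1, which opens heme to biliverdin and is induced by many stresses. Its level was 623 ± 36.2 in mock, 408 ± 24.7 in OHT, 574 ± 33.5 in dox and 464 ± 27.7 in OHT+dox. The OHT and OHT+dox means were below mock and dox. It fell by 0.61 ± 0.12 with OHT (adjusted p = 1.06e-05), a ratio of 0.656, and by 0.43 ± 0.12 with OHT+dox (adjusted p = 0.00170), a ratio of 0.745. With dox it had −0.12 ± 0.12 (adjusted p = 0.632), with a 95% interval of the ratio from 0.784 to 1.08.

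Nqo1 and Hmox1 belong to a list of genes of quinone, carbonyl and heme detoxification. Of its 15 genes, all tested, 0 rose and 6 fell with OHT, 0 rose and 0 fell with dox, and 0 rose and 6 fell with OHT+dox, by the Wald test. These are 40.0%, 0.0% and 40.0% of the 15, beside 21.7%, 10.8% and 40.1% of all genes. Those shares of all genes count both directions, and on that count the role stood above them with OHT only. The genes of the role that passed all fell, however. With the fold minimum, 3 of the 15 were called lower with OHT, beside 3.02% of all genes. With OHT+dox 5 of the 15 were called lower, where 20.7% of all genes were called in either direction and 10.9% higher. At an unadjusted p under 0.05 there were 6, 2 and 9 of the 15, beside 32.1%, 22.7% and 47.4% of all genes. The median log2 fold change of the 15 was −0.18, −0.08 and −0.43. Osgin1, an oxidative stress-induced growth inhibitor, fell by 0.67 ± 0.23 with OHT and 0.93 ± 0.23 with OHT+dox. Blvrb, a biliverdin reductase gene, fell by 0.41 ± 0.16 with OHT (adjusted p = 0.0481) and 0.59 ± 0.16 with OHT+dox. The other biliverdin reductase gene, Blvra, added here after its values were seen, passed in none (0.16, 0.24 and 0.33, each ± 0.17). Ptgr1, a reductase of reactive aldehydes, had −0.57 ± 0.31 with OHT and fell by 0.87 ± 0.32 with OHT+dox. Nqo2, the paralog of Nqo1, fell by 0.56 ± 0.18 with OHT+dox, and Hmox2, the constitutive heme oxygenase, passed in none (−0.13, −0.05 and −0.17, each ± 0.14).

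**Figure D3:**
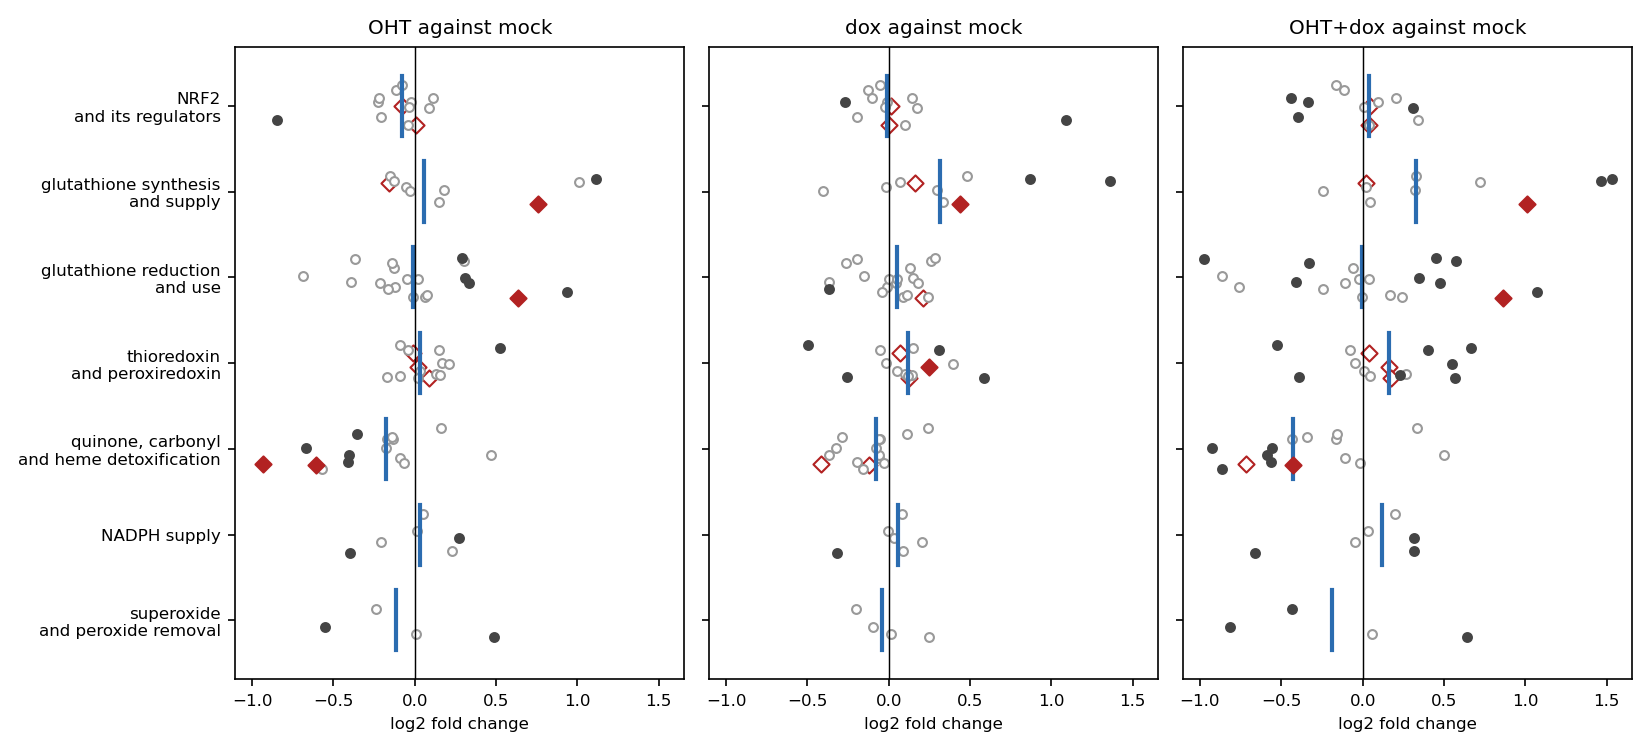
Log2 fold changes from mock of the 82 tested genes of the wider list, by role and by comparison, with genes as circles, the 10 members as red diamonds, filled symbols for genes that passed and a blue line at the median of the role. Of the genes that passed, those of quinone, carbonyl and heme detoxification lie below 0 and those of glutathione synthesis and supply above 0, while both roles also hold genes that did not pass on the other side.

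The wider list held 88 genes in 7 roles, members included, of which Cbs, Ggt5, Ggt7, Gpx7, Gstt2 and Mgst1 could not be tested. Of the 82 tested, 10 rose and 9 fell with OHT, 7 rose and 5 fell with dox, and 18 rose and 17 fell with OHT+dox. These shares, 23.2%, 14.6% and 42.7%, are near the 21.7%, 10.8% and 40.1% of all genes that passed. Without the 10 members, 8 rose and 7 fell with OHT, 5 and 5 with dox, and 16 and 16 with OHT+dox, of 72 tested. So a count over the whole list lies near the background. For the supply of NADPH, the reductant that GSR, TXNRD1 and NQO1 use, 6 genes were tested. G6pdx and Tkt, of the pentose phosphate pathway, rose by 0.31 ± 0.09 each with OHT+dox, while Idh1, the cytosolic isocitrate dehydrogenase, fell by 0.66 ± 0.11. Of 4 genes that remove superoxide or peroxide, Sod2, the mitochondrial superoxide dismutase, rose by 0.64 ± 0.09 with OHT+dox. The extracellular dismutase Sod3 and the catalase gene Cat fell by 0.82 ± 0.15 and 0.43 ± 0.10.

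The treated groups were also compared directly. For OHT+dox against OHT, 0 of the 10 genes were called and 0 passed by the Wald test, where 1.94% of all genes were called and 4.81% passed. At an unadjusted p under 0.05 there were 16.3% of all genes and 2 members. These 2 were Gclc, at 0.25 ± 0.11 (adjusted p = 0.181, 95% interval of the ratio 1.03 to 1.38), and Gsr, at 0.23 ± 0.11 (adjusted p = 0.223, 1.02 to 1.36). For OHT+dox against dox, 2 of the 10 were called, where 9.24% of all genes were called (5.69% higher) and 21.7% passed. Gclc was higher by 0.57 ± 0.11 (adjusted p = 4.82e-06) and Gsr by 0.66 ± 0.11 (adjusted p = 6.19e-08). Hmox1 had −0.31 ± 0.12 and stood just outside the threshold (adjusted p = 0.0502).

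For OHT against dox, 0 of the 10 were called and 4 passed without the fold minimum by the Wald test. Of all genes tested, 7.44% were called and 16.3% passed. At an unadjusted p under 0.05 there were 5 members, beside 26.4% of all genes. Gclc and Gsr were higher in OHT, by 0.32 ± 0.11 (adjusted p = 0.0270) and 0.42 ± 0.11 (adjusted p = 0.00123). Hmox1 and Txnrd1 were lower in OHT, by −0.49 ± 0.12 (adjusted p = 0.000775) and −0.23 ± 0.08 (adjusted p = 0.0399). Gclm had −0.32 ± 0.15, with an unadjusted p under 0.05 and an adjusted p = 0.143.

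Whether the effect of both drugs differed from the sum of the effects of each was tested as an interaction. By the Wald test 0 of the 10 members passed, 0 had an unadjusted p under 0.05, and 0.0% of all genes passed, with 132 genes at an unadjusted p under 0.05. The smallest unadjusted p among the members was 0.0771, for Hmox1, whose interaction was 0.30 ± 0.17. For Gclc it was −0.19 ± 0.16, with a 95% interval from −0.49 to 0.12, and for Gsr 0.02 ± 0.15, from −0.28 to 0.33. The interval of Nqo1, from −0.29 to 1.56, was the widest. Over all genes tested for interaction, the standard deviation of the z-values was 0.695, below the 1 that the recovered errors imply, so these intervals may be too wide. With standard errors scaled to that spread 16 genes were called over all genes, and 0 of the members.

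For an order of levels across genes, counts were divided by kilobases of exon, with lengths from the GENCODE vM21 basic annotation and not from the annotation of the authors, so the order is approximate. In mock the normalized count per kilobase was 397 for Hmox1, 350.0 for Nfe2l2, 345 for Prdx1, 304 for Keap1, 267 for Srxn1, 266 for Txnrd1, 171 for Gsr, 101 for Gclc, 42.9 for Gclm and 31.1 for Nqo1. The neighbours Hmox1 and Nfe2l2, Nfe2l2 and Prdx1, Srxn1 and Txnrd1, and Gclm and Nqo1 did not differ beyond their 95% intervals. Hmox1 went from place 1 in mock to place 7 in OHT, at 260.3, where it did not differ from its neighbour Srxn1. Gsr went from place 7 to place 5 in OHT, at 265, and to place 4 in OHT+dox, at 311. There it did not differ beyond the 95% intervals from its neighbours, Txnrd1 and Srxn1 in OHT and Keap1 and Txnrd1 in OHT+dox. Gclc kept place 8 in OHT+dox at 203, and Gclm and Nqo1 remained at the bottom of the order in OHT and in OHT+dox.

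**Figure D4:**
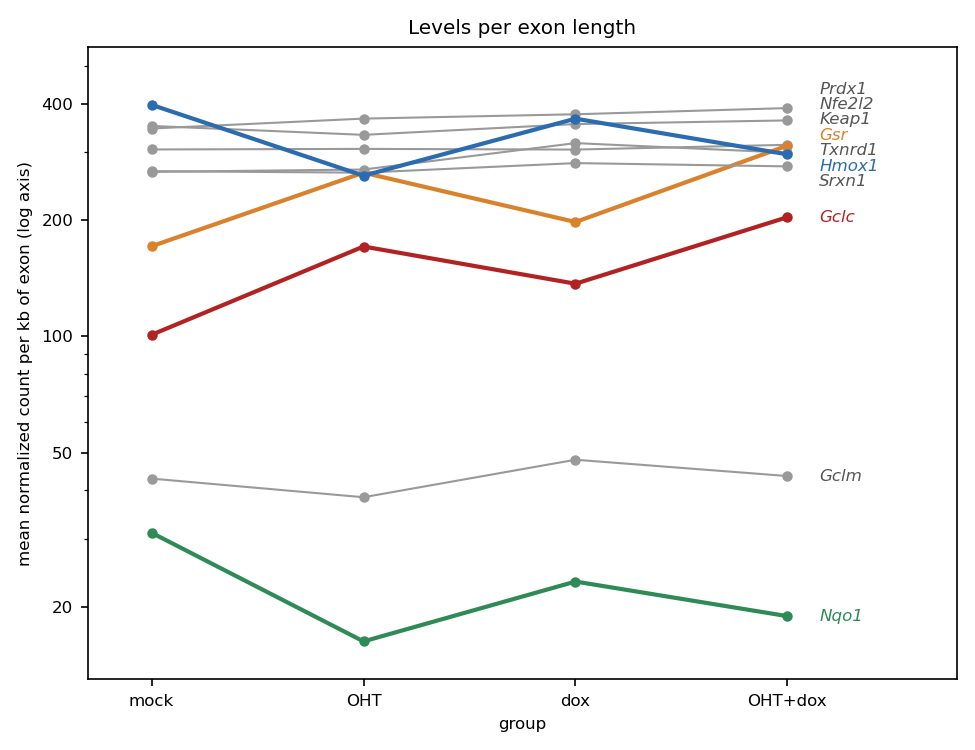
Mean normalized count per kilobase of exon (log axis) of the 10 genes in the 4 groups, with lines that join the values of a gene. The line of Hmox1 drops from the top in mock into the band of the other genes in OHT, and those of Gsr and Gclc climb in OHT and OHT+dox.

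The genes whose 3 fold changes from mock were nearest those of Nfe2l2, Nqo1 and Hmox1 were sought among 9644 genes with a mean of at least 100 normalized counts, by the Euclidean distance over the 3 log2 values. Nearest to Nfe2l2 were Fam195b, Ppp2r5a and Eif2b2, at 0.0105, 0.0223 and 0.0225. Nearest to Hmox1 were Ntn4, Shf and Map7d1, at 0.0438, 0.0998 and 0.139. Nqo1 had no gene as near, with Cyp39a1 at 0.218, Fyn at 0.251 and Pqlc3 at 0.271. Its own mean lay under the minimum of 100, so genes at its level were not searched. The standard errors of the folds of Nqo1 and of Nfe2l2 exceeded the distances given for them. Those of Hmox1, each 0.12, exceeded its distances to Ntn4 and Shf but not that to Map7d1. None of these 9 genes belongs to the list of 88.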

How the data were processed

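RNA was measured in 12 libraries (4 groups of 3). The kit used total RNA, with no poly(A) step, and its reads carry no strand, so reads of a gene and of an antisense gene over it are mixed. Per the submitters' processing notes, the authors used DESeq2, featureCounts 1.4.5-p1, SAMtools, TopHat2 2.0.8 and the mm9 build, with an annotation not given in the sources used here and a version of DESeq2 likewise unstated. The table the authors deposited holds, for each of 3 comparisons with mock, the mean signal (counts divided by size factors, averaged over 6 libraries), a shrunken log2 fold change, a p-value adjusted within the comparison and a call.

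These columns hold comparisons of the authors, and none of their values is printed. They were used only to work back group means and errors, because no value per library could be analysed here. The adjustment was undone, the standard error taken as the fold over the z-value of its p, the shrinkage undone with a normal prior (standard deviation 0.447, 0.337 and 0.620 for OHT, dox and OHT+dox, 2 times the 0.999 quantile of the standard errors), and comparisons put on the scale of OHT+dox through the mock means (shifts of 0.0306 and 0.00188 log2). The dispersion of a gene was the mean over comparisons with p at most 0.9, which left 1 comparison for Keap1 and 2 for Srxn1. Nqo1 also had 2, because its dox comparison has no adjusted p. Two-sided Wald tests were adjusted over 12257 genes. The steps were also run on counts simulated from the recovered means and dispersions, with a normal prior of the same form. Because it shares these assumptions, that run could not show an error in them. All steps were run in Python 3.11.15 with pandas 2.3.3, NumPy 2.4.6, SciPy 1.17.1 and Matplotlib 3.10.9. All 10 members were named whatever their values. Of the list, near relatives (Nfe2l1, Bach1, Gss, Slc7a11, Txnrd2, Txnrd3, Hmox2, Nqo2, Prdx2 to Prdx6) were named likewise, and up to 3 genes per role and direction by size with OHT+dox. Members, lists and tests were chosen with earlier results of these data known. Lines with a repeated symbol (4) were left out.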

Additional observations from a re-analysis of the deposited data

How the results depend on the processing

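Of 207 fold changes of members recomputed under the alternatives (each comparison's own standard error, equal sums, minimum means of 10 or 100 counts, a wider fold prior or one 0.8 times as wide, and standard errors scaled by 0.695 to the spread of the interaction), 200 kept their direction and their side of the threshold. Without the fold minimum 2 members counted as called with dox and 4 for OHT against dox, where 0 were called with it in each. With equal sums Nfe2l2 with dox turned from 0.02 to −0.00376, and Txnrd1 with dox no longer passed, as given above. With scaled standard errors Gsr passed with dox (adjusted p = 0.0286), and Txnrd1 (0.00906), Prdx1 (0.0132) and Nqo1 (0.00396) with OHT+dox. Nqo1 with OHT+dox also passed with the narrower prior (−1.04). A minimum mean of 100 removed Nqo1. No paired analysis was possible because the table holds no value per library, and leaving out each library in turn was not run for the same reason. Low counts limit Nqo1, for which the model implies a library spread of 28.1%.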
